A study of Mus musculus with 8 samples.

Results

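Imprinted genes are transcribed mainly from 1 parental copy, and 34 such genes of the mouse were followed here through a knockdown of Mkrn1 in embryonic stem cells. The members are well-known imprinted genes, listed by name and grouped by locus. Of the 34, 28 were measured by a probe set that carries exactly 1 gene symbol, among 19937 genes measured in this way. H19, Kcnq1ot1 and Zrsr1 were not matched by symbol, and Snrpn, Mirg and Gnas lay on probe sets that carry several symbols, so these 6 were not analysed here. The series holds 8 Affymetrix gene arrays of total RNA from R1, an established line of male mouse embryonic stem cells with the background 129X1 x 129S1. In 4 of them, numbered 1, 3, 5 and 7, the cells had received the pLKO.1 plasmid with a control hairpin against GFP (shGFP). In the other 4, numbered 2, 4, 6 and 8, they had received pLKO.1 with a hairpin against MKRN1 (shMKRN1), an E3 ubiquitin ligase that also binds RNA. All 8 cultures grew on gelatin with LIF and 15% serum, received puromycin (2 µg/mL) over 4 days, and gave their RNA on day 6 after the plasmids had been introduced with a cationic lipid. A single hairpin against Mkrn1 was used. Nothing in the labels tells whether arrays of 1 group stem from separate transfections, and every p-value rests on the spread among the arrays, which may be technical. Arrays of RNA do not separate the parental alleles, so all levels are sums over both copies. In RNA from a whole culture, fewer cells of a type and less RNA per cell cannot be told apart.

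The hairpin is shown because it is the agent on which every comparison rests. Its sequence, 5′ to 3′ as the labels give it, is as follows.
shMKRN1 hairpin: gcgagatgttgcttatgcttt

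Imprinting is set by DNA methylation laid down in the egg or the sperm at control regions, each of which governs a cluster of neighbouring genes on the same chromosome. Methylation of these regions survives the demethylation of the early embryo because the zinc finger protein ZFP57, which binds a methylated hexamer, recruits TRIM28 and a histone methyltransferase to them. Many imprinted genes act on growth of the embryo and placenta, and cultured embryonic stem cells are known for variable imprints between lines and passages.

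Mkrn1 itself was lower in the knockdown. Its log2 level lay between 10.34 and 10.51 in the shGFP arrays and between 9.81 and 9.88 in the shMKRN1 arrays, a ratio of 0.662 to the control (95% confidence interval 0.610 to 0.717; limma adjusted p = 0.000767). All values are log2 expression values as deposited by the authors. The medians of the 8 arrays over all genes lay between 7.58 and 7.65. On the leading principal component of all genes, with 37.6% of the variance, shGFP 7 scored 23.2, against -3.45 to 6.20 in the rest of its group, and shMKRN1 8 scored 7.46, against -15.2 to -6.02. All 10 markers of embryonic stem cells were measured above the level of silent genes. That level was taken from 1194 olfactory and vomeronasal receptor genes, 95% of which had a mean log2 level below 6.50.

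Most imprinted genes of this list were measured at nearly the same level in both groups. Of the 28 members, 1 rose, Sgce, and none fell by limma at a Benjamini-Hochberg adjusted p of 0.05, against 4.49% of all genes called in either direction, 3.66% higher and 0.838% lower. At an unadjusted p of 0.05, 6 of the 28 passed (21.4%), against 19.5% of all genes. The median log2 change of the members was 0.04, beside 0.01 over all genes, and the median size of the change without its sign was 0.10 beside 0.08. For 26 of the 28, the 95% confidence interval of the log2 change lay within -0.5 to 0.5, which is a factor of 1.41 either way, and this held for 95.6% of all genes. The other 2 were Sgce and Airn. The ranges of the groups did not overlap for 4 members (14.3%), Sgce, Phlda2, Cd81 and Igf2r, and for 14.1% of all genes. The shares of the members called, and of those with groups apart, were thus close to those of all genes. The median spread between arrays of a group was an SD of 0.10 for the members and 0.10 for all genes, and 12 of the 28 lay above that of all genes. Asb4 did not exceed the receptor-gene limit in either group, and Tspan32 and Nap1l5 stayed below it in 1 group each, so their measured differences say little about a change. Dcn (6.76 in shGFP and 6.82 in shMKRN1) and Rian (6.94 and 7.05) lay just above that range.

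**Figure D1:**
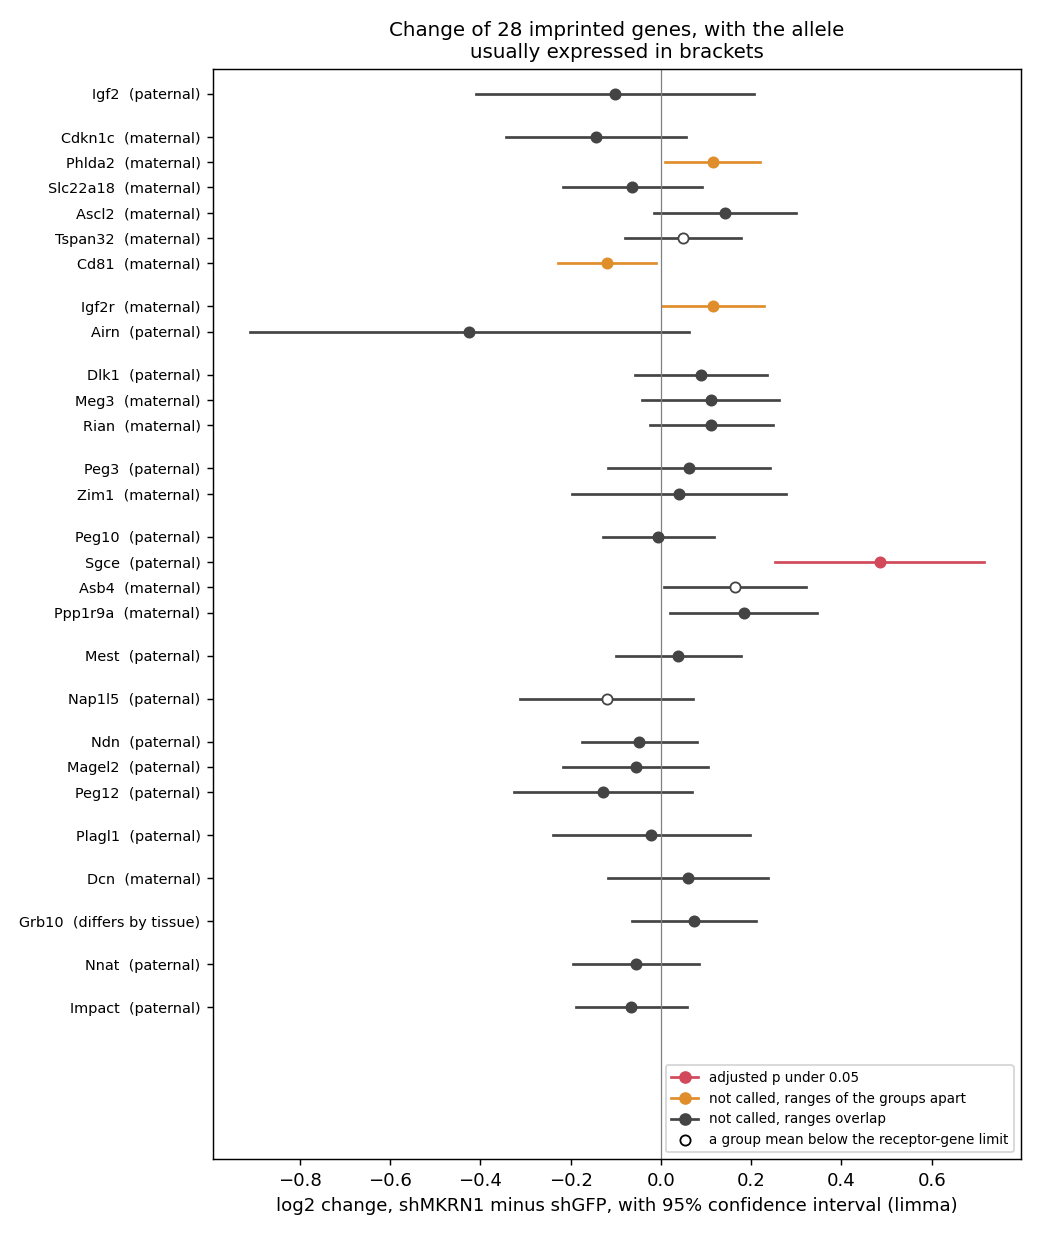
Log2 change (shMKRN1 minus shGFP, x axis) of each of the 28 measured imprinted genes (y axis, ordered by locus, with the allele usually expressed in brackets), as limma estimates with 95% confidence intervals from 4 arrays a group. Sgce at 0.48 is the member past the threshold, and the interval of Airn, from -0.91 to 0.06, is the widest.

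The Peg10-Sgce locus on chromosome 6 held the member that changed. Sgce encodes epsilon-sarcoglycan, a membrane glycoprotein whose loss on the expressed paternal copy is known to cause myoclonus-dystonia in people. Its log2 level was 8.997, 8.73, 8.83 and 8.54 in shGFP arrays 1, 3, 5 and 7, and 9.34, 9.39, 9.25 and 9.05 in shMKRN1 arrays 2, 4, 6 and 8. All 4 shMKRN1 arrays lay above all 4 shGFP arrays, with shMKRN1 8 and shGFP 1 close to each other. The means were 8.78 ± 0.19 and 9.26 ± 0.15 (SD, n = 4 each), a rise of 0.48 (SE 0.10; limma adjusted p = 0.0296) or 1.399-fold with a 95% confidence interval of 1.19 to 1.64. The rise lay between 0.41 and 0.56 without each array in turn. The call was kept without shGFP 1, shGFP 7 or shMKRN1 8, and was lost without shGFP 3 (adjusted p = 0.095), shGFP 5 (0.0537), shMKRN1 2 (0.0907), shMKRN1 4 (0.0879) or shMKRN1 6 (0.0866), as well as with p-values adjusted over every probe set (0.0771).

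Peg10, a paternally expressed gene derived from a retrotransposon and needed for the placenta, is transcribed away from Sgce from the same region, with no other protein-coding gene between them in the RefSeq order. Its log2 level was 13.51, 13.41, 13.37 and 13.33 in shGFP arrays 1, 3, 5 and 7, and 13.46, 13.41, 13.36 and 13.37 in shMKRN1 arrays 2, 4, 6 and 8. The ranges overlapped almost fully, and the change was -0.01 (SE 0.055; 95% confidence interval -0.13 to 0.12). The log2 difference between Sgce and Peg10 on the same array was higher in every shMKRN1 array than in any shGFP array, by 0.49 on average (exact two-sided permutation p = 0.0286, the smallest that 8 arrays can give). Over the 4 pairs of neighbours tested in this way the adjusted p was 0.114, and a single pair at the smallest possible p cannot go lower.

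The maternally expressed genes of the same locus had higher means in the knockdown without passing the test. Ppp1r9a, which encodes the actin-binding neurabin, was at 7.77, 7.81, 8.08 and 7.78 in shGFP arrays 1, 3, 5 and 7 and at 8.09, 8.03, 8.07 and 7.98 in shMKRN1 arrays 2, 4, 6 and 8. Array shGFP 5 lay with the shMKRN1 arrays, and the change of 0.18 (SE 0.073) had a limma adjusted p of 0.199, or 0.0342 without that array. Asb4, a substrate adaptor of a ubiquitin ligase, was at 6.06 and 6.23, within the silent range. From Calcr to Asb4 the RefSeq order holds 15 protein-coding genes, of which 14 were measured and 2 were called, against 4.49% of all genes, in a stretch whose ends were chosen with Calcr and Sgce known to be called. Besides Sgce, Calcr was called: this calcitonin receptor gene, expressed mainly from the maternal copy in brain, fell by 0.60 (SE 0.11; limma adjusted p = 0.0182). It was at 7.97, 7.88, 8.47 and 8.15 in shGFP arrays 1, 3, 5 and 7 and at 7.42, 7.59, 7.49 and 7.56 in shMKRN1 arrays 2, 4, 6 and 8, so the groups were apart. Its call was lost without shMKRN1 2 (adjusted p = 0.0637), without shMKRN1 6 (0.0625), without both shGFP 7 and shMKRN1 8 (0.0505) and over every probe set (0.0550). Of the genes between Calcr and Sgce, Casd1, next to Sgce, differed by 0.11 (adjusted p = 0.513) and Col1a2, a collagen gene of fibroblasts, by 0.22 (adjusted p = 0.262), and neither passed.

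The Igf2r-Airn locus on chromosome 17 held the member with the widest spread. Airn is a long noncoding RNA of the paternal copy that starts inside the Igf2r gene on the opposite strand, and its transcription is known to silence Igf2r in cis in differentiated cells, while embryonic stem cells express Igf2r from both copies. The windows around the start sites of both genes (300 bases each, most of them upstream, from RefSeq on GRCm38.p6) are shown. The start sites lie 28395 bases apart. Of the 4 pairs of neighbours tested, this one had the largest difference between its changes with all arrays (though not without shGFP 1 or without shMKRN1 8, where Sgce and Peg10 had it), and the windows are printed for that reason and because they differ in their CG dinucleotides, the sites of methylation, which are in capitals. The Igf2r window lies at chr17:12769657-12769956 on the minus strand and the Airn window at chr17:12741061-12741360 on the plus strand.
Igf2r: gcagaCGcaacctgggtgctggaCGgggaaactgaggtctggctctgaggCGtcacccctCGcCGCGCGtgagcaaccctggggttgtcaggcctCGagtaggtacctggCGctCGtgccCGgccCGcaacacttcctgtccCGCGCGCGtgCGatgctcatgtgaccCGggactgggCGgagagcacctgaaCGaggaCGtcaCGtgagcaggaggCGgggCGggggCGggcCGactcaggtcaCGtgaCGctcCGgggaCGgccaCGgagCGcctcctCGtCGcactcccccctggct
Airn: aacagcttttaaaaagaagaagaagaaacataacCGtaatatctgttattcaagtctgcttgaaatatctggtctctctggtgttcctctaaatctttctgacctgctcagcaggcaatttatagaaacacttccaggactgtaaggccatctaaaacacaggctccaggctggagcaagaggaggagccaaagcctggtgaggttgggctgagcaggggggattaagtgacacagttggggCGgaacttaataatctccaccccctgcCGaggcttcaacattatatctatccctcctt
The Igf2r window held 34 CG, more than 92.3% of all RefSeq windows of this length, and the Airn window 3, more than 23.3% of them. As most bases lie upstream of the start sites, the windows do not show the CG content further into either gene. Methylation was not measured.

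Airn was at 8.56, 7.98, 7.79 and 7.27 in shGFP arrays 1, 3, 5 and 7, and at 7.42, 7.69, 7.43 and 7.37 in shMKRN1 arrays 2, 4, 6 and 8. The shGFP arrays spanned more than 1 log2 unit and enclosed all 4 shMKRN1 arrays. The means were 7.90 ± 0.53 and 7.48 ± 0.15 (SD, n = 4 each), and the change of -0.42 (SE 0.22; limma adjusted p = 0.328) was -0.20 without shGFP 1 and -0.63 without shGFP 7. Airn passed in none of the alternatives run. Its limma adjusted p was 0.0531 with array weights, 0.0603 without shGFP 7 and 0.558 without shGFP 1. Igf2r, which encodes the receptor that clears insulin-like growth factor 2, was at 10.29, 10.24, 10.24 and 10.13 in shGFP arrays 1, 3, 5 and 7, and at 10.35, 10.37, 10.33 and 10.31 in shMKRN1 arrays 2, 4, 6 and 8. The groups did not overlap, yet the change was small, 0.12 (SE 0.051; adjusted p = 0.249). The log2 difference between Igf2r and Airn was higher by 0.54 on average in shMKRN1, with an exact permutation p of 0.0571 and 0.114 adjusted over the 4 pairs. It was 0.34 without shGFP 1. The transcripts overlap on opposite strands, and whether the probes of either lie in the overlap was not tested.

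**Figure D2:**
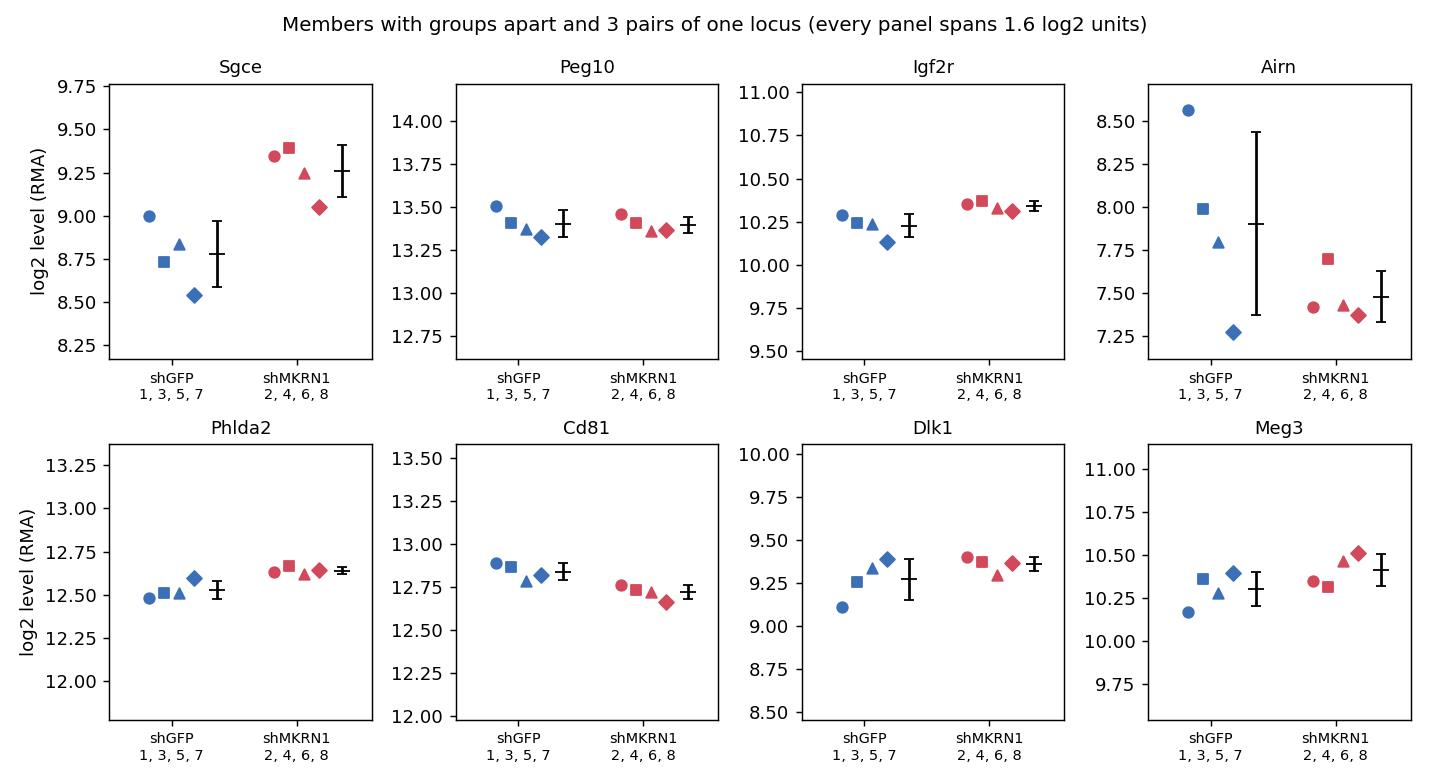
Log2 level (y axis, each panel spanning 1.6 log2 units) of 8 imprinted genes in each of the 4 shGFP arrays (blue) and 4 shMKRN1 arrays (red), with the group mean and SD in black. The groups are apart for Sgce, Igf2r, Phlda2 and Cd81, while for Airn the shGFP arrays reach from 7.27 to 8.56 and enclose the shMKRN1 arrays.

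The Kcnq1 locus on distal chromosome 7 carries maternally expressed restrainers of growth, which the paternal noncoding RNA Kcnq1ot1 silences in cis. None of its 6 measured members passed, against 4.49% of all genes called. An unadjusted limma p of 0.05 was passed by 2 of the 6 (33.3%), Phlda2 and Cd81, against 19.5% of all genes. The same 2 had groups apart (33.3%, against 14.1% of all genes). Phlda2, which limits growth of the placenta, was at 12.48, 12.51, 12.51 and 12.60 in shGFP arrays 1, 3, 5 and 7 and at 12.63, 12.67, 12.62 and 12.64 in shMKRN1 arrays 2, 4, 6 and 8. The shMKRN1 arrays all lay higher, by 0.11 on average (SE 0.048; limma adjusted p = 0.215). Cd81, a tetraspanin imprinted in placenta, was at 12.89, 12.87, 12.78 and 12.82 in shGFP arrays 1, 3, 5 and 7 and at 12.76, 12.73, 12.72 and 12.67 in shMKRN1 arrays 2, 4, 6 and 8. Here the shMKRN1 arrays all lay lower, with a change of -0.12 (SE 0.049; adjusted p = 0.213). With a variance trend over intensity both passed (0.0425 for Phlda2 and 0.0431 for Cd81). Cdkn1c, an inhibitor of cyclin-dependent kinases, differed by -0.14 (95% confidence interval -0.34 to 0.06) and Ascl2, a transcription factor of trophoblast progenitors, by 0.14 (-0.01 to 0.30). Slc22a18, a transporter gene, differed by -0.06 (-0.22 to 0.09), and the tetraspanin gene Tspan32 lay at the silent limit (6.46 and 6.51). Igf2, the growth factor gene next to this cluster, was at 12.59, 12.26, 12.01 and 11.95 in shGFP arrays 1, 3, 5 and 7 and at 12.33, 12.12, 12.02 and 11.93 in shMKRN1 arrays 2, 4, 6 and 8. Its spread within each group exceeded the difference of -0.10 between them (SE 0.14; adjusted p = 0.758), which was 0.03 without shGFP 1.

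At the Dlk1-Meg3 locus on chromosome 12, loss of the maternal transcripts is known to mark stem cell lines of poor developmental potential. All 3 measured members had slightly higher means and none passed, against 4.49% of all genes called. Dlk1, a paternally expressed membrane protein of the Notch ligand type, was at 9.11, 9.25, 9.34 and 9.39 in shGFP arrays 1, 3, 5 and 7 and at 9.40, 9.38, 9.30 and 9.37 in shMKRN1 arrays 2, 4, 6 and 8. Meg3, a maternally expressed noncoding RNA, was at 10.17, 10.36, 10.28 and 10.39 in the shGFP arrays in that order and at 10.35, 10.31, 10.47 and 10.51 in shMKRN1 arrays 2, 4, 6 and 8. The changes were 0.09 for Dlk1 (95% confidence interval -0.06 to 0.24) and 0.11 for Meg3 (-0.04 to 0.26). Rian, the next maternal RNA, differed by 0.11 (-0.02 to 0.25). In all 3, shGFP 1 was the lowest of the 8 arrays, and without it the changes were 0.036 for Dlk1, 0.067 for Meg3 and 0.061 for Rian. With all arrays the changes of the paternal and the maternal transcript, Dlk1 minus Meg3, were -0.02 apart (exact permutation p = 0.771). Meg3 stayed far above the range of silent genes in every array.

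At the Peg3-Zim1 locus on proximal chromosome 7, Peg3, a paternally expressed zinc finger gene, was at 10.74, 10.62, 10.62 and 10.41 in shGFP arrays 1, 3, 5 and 7 and at 10.80, 10.69, 10.58 and 10.55 in shMKRN1 arrays 2, 4, 6 and 8. Zim1, its maternally expressed neighbour and also a zinc finger gene, was at 7.16, 7.11, 7.07 and 6.84 and at 7.34, 7.16, 6.92 and 6.91 in the same orders. Both groups overlapped, with changes of 0.06 (95% confidence interval -0.12 to 0.24) and 0.04 (-0.20 to 0.28). In shGFP the pair kept step: the difference between Peg3 and Zim1 had an SD of 0.031, against 0.14 for each gene alone. In shMKRN1 that SD was 0.095, against 0.11 for Peg3 and 0.21 for Zim1. Both genes fell from array 1 to 7 and from 2 to 8. Igf2, of another locus, fell in the same orders, so this was not particular to the pair. The change in the difference between Peg3 and Zim1 was 0.02 (exact permutation p = 0.686).

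The paternally expressed genes of the Snrpn-Ndn locus, the region of Prader-Willi syndrome on chromosome 7, had slightly lower means. Ndn, a growth suppressor of neurons, differed by -0.05 (95% confidence interval -0.17 to 0.08), Magel2, a regulator of ubiquitin ligases on endosomes, by -0.06 (-0.22 to 0.11) and Peg12 by -0.13 (-0.33 to 0.07). Mkrn3, the makorin gene of this locus, lay within the silent range in both groups (5.91 and 6.10). Of the members that stand alone, Mest, a paternally expressed hydrolase-like gene, differed by 0.04 (-0.10 to 0.18), and Grb10, an adaptor that dampens insulin and growth factor signalling, by 0.07 (-0.06 to 0.21). Plagl1, a zinc finger transcription factor, differed by -0.02 (-0.24 to 0.20). Nnat, a proteolipid of neurons and the early embryo, differed by -0.06 (-0.19 to 0.08), and Impact, a regulator of the kinase GCN2, by -0.07 (-0.19 to 0.06). Nap1l5 differed by -0.12 (-0.31 to 0.07) and Dcn, a proteoglycan of connective tissue, by 0.06 (-0.12 to 0.24).

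Split by the allele that is usually expressed, the members differed in the sign of their small changes. Of 13 measured genes with maternal expression, 10 had a higher mean in shMKRN1, with a median change of 0.11. Of 14 with paternal expression, 4 did, with a median of -0.05, and Sgce was among those 4. Without Asb4, Tspan32 and Nap1l5, which lay within the silent range in at least 1 group, 8 of 11 maternal genes (median 0.11) and 4 of 13 paternal genes (median -0.05) had a higher mean. Over all genes, 10519 of 19937 had a higher mean. The maternal median stayed between 0.08 and 0.11 without each array in turn, and the paternal median between -0.06 and 0.001, the latter without shGFP 1. Which copy was expressed in these cells was not measured. Igf2r, which embryonic stem cells express from both copies, counts as maternal here, and 6 of the 13 maternal genes belong to the Kcnq1 locus. The difference between the 2 sets was not tested.

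The members also differed between arrays of the same group. Array shGFP 1 was the highest of its group for 13 of the 28 members (46.4%), against 18.5% of all genes, and the lowest for 10 others (35.7%, against 29.1%). Array shMKRN1 2 was the highest of its group for 14 members (50%, against 33.4%) and shMKRN1 4 for 10 (35.7%, against 21.3%). Igf2, Cdkn1c, Ascl2, Cd81, Zim1, Peg3 and Peg10 were highest in shGFP 1 and in shMKRN1 2 within their groups. At the other end, shGFP 7 was the lowest of its group for 12 members (42.9%, against 32% of all genes) and shMKRN1 8 for 13 (46.4%, against 34.3%). Markers of other cell types also varied between arrays, not all in the same order. The summed level of 10 trophoblast markers, on a log2 scale, was 13.6 in shGFP 1 and 12.9 to 13.2 in the other shGFP arrays, and 13.7 in shMKRN1 2 and 13.1 to 13.4 in the other shMKRN1 arrays. That of 12 fibroblast markers ranged from 11.6 to 12.1 in shGFP and from 11.6 to 11.9 in shMKRN1, and that of 12 primitive endoderm markers from 11.3 to 11.6 and from 11.3 to 11.5. All 3 sums were highest in shGFP 1 and shMKRN1 2. The sums add linear levels, so the strongest genes weigh most. In shGFP 1 these were Acta2 (11.51) for fibroblasts and Krt8 (12.75) and Krt18 (11.67) for trophoblast. Most fibroblast markers above the silent range went the other way in shGFP. Col1a1, Col1a2, Col6a1, Thy1, Pdgfrb and Twist2 were lowest of the shGFP arrays in shGFP 1, as were the trophoblast marker Cdx2 and the endoderm marker Sox7. The sum of 10 neural and muscle markers, at 11.6 to 11.7 in shGFP and 11.6 in every shMKRN1 array, was lowest of shGFP in shGFP 1. Of these lists, 1 trophoblast marker (Tfap2c), 2 fibroblast markers (Col1a1 and Pdgfrb) and none of the primitive endoderm markers rose and none fell (limma). An unadjusted p of 0.05 was passed by 30% of the trophoblast, 25% of the fibroblast and 16.7% of the primitive endoderm markers (2 genes). The median change was 0.21 for trophoblast markers (8 of 10 higher), 0.04 for fibroblast and 0.02 for primitive endoderm markers, beside 0.01 over all genes. The fibroblast markers Fap, S100a4, Lum and Postn, the trophoblast markers Elf5 and Tpbpa and the endoderm markers Afp and Ttr lay within the silent range. Of the 10 stem cell markers 1 rose, Nanog, and of the 10 neural and muscle markers Actc1 (0.62) and Des (0.34) rose and Neurod1 (-0.67) fell, against 4.49% of all genes. At an unadjusted p of 0.05, 40% of the stem cell list and 40% of the neural and muscle list passed, against 19.5% of all genes. The part of other cell types in the members' values was not tested.

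**Figure D3:**
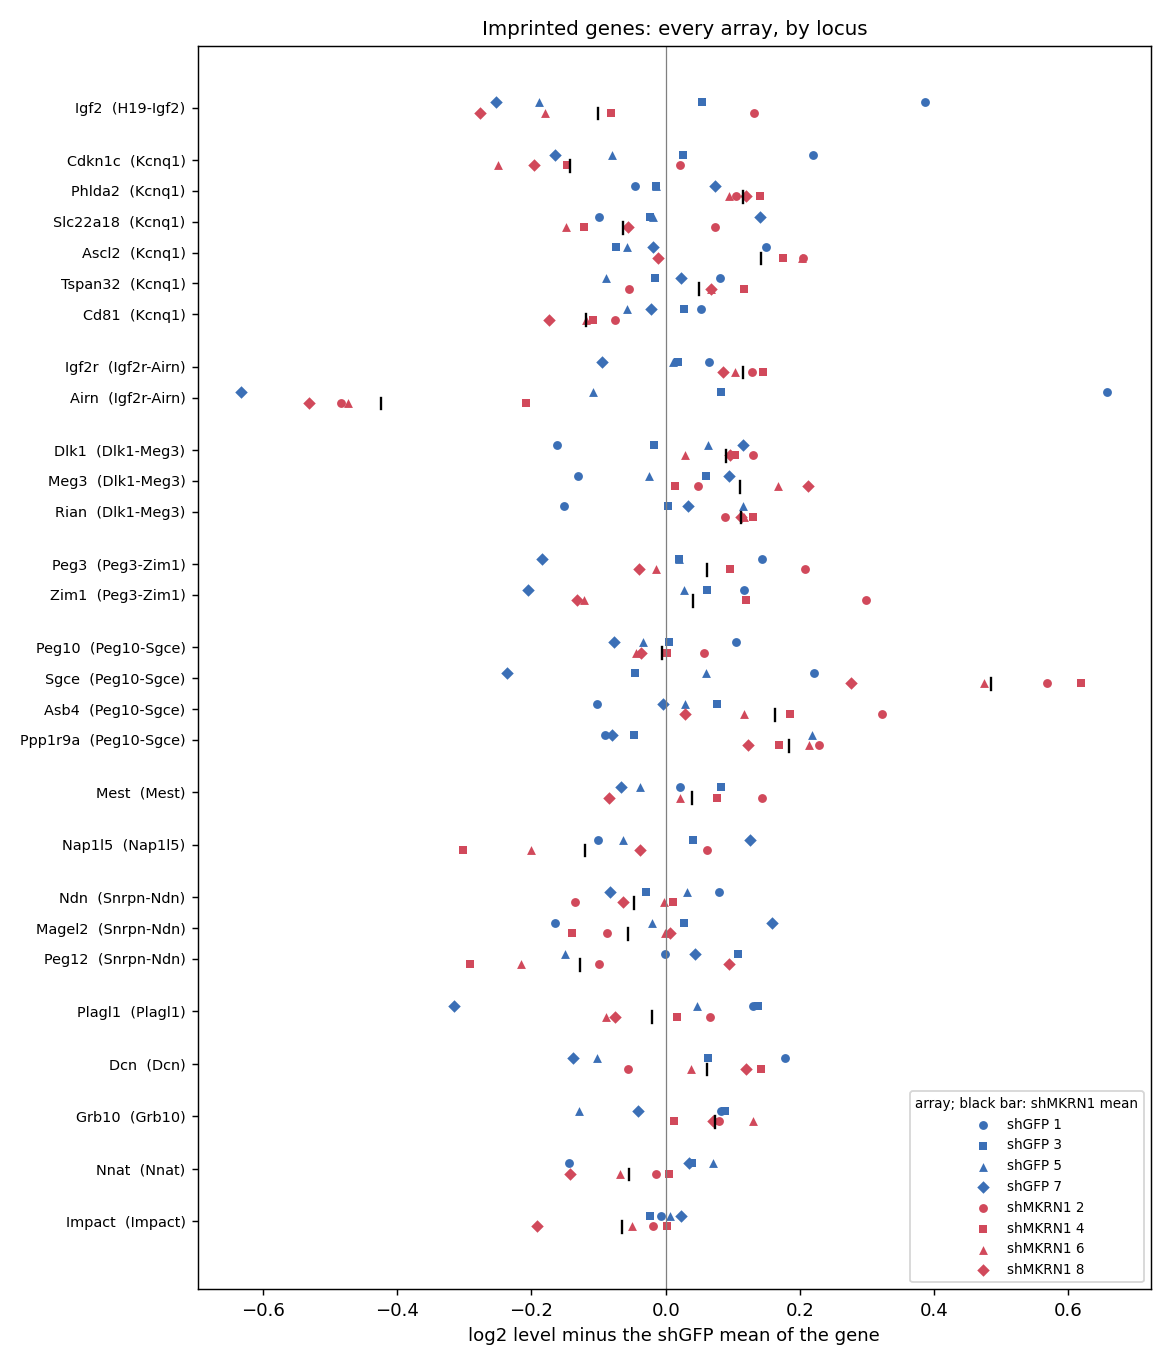
Log2 level minus the shGFP mean of the gene (x axis) for each of the 28 imprinted genes (y axis, by locus) in every array, shGFP in blue and shMKRN1 in red, with the shMKRN1 mean as a black bar. For Sgce the red points lie to the right of all blue ones, and for Igf2, Airn and Cdkn1c array shGFP 1 lies to the right of the other shGFP arrays.

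Of 44 further imprinted genes listed by name, 38 were measured, 4 rose and 1 fell (13.2%, against 4.49% of all genes), with a median change of 0.01. At an unadjusted p of 0.05, 26.3% passed, against 19.5% of all genes, and the groups were apart for 21.1%, against 14.1%. The list was chosen with earlier results of these data known, so these shares are not independent of them. Slc38a4, a paternally expressed amino acid transporter of the placenta, rose by 0.36 (SE 0.062; limma adjusted p = 0.0134), from 11.36 to 11.59 in the shGFP arrays to 11.72 to 11.87 in the shMKRN1 arrays. Smoc1, a secreted calcium-binding protein, rose by 0.29 (SE 0.049; adjusted p = 0.0118), and its call held in all 8 fits that leave out 1 array. Ampd3, an AMP deaminase, rose by 0.30 (adjusted p = 0.0211). Copg2, a coatomer subunit gene that lies next to Mest, rose by 0.21 (adjusted p = 0.0361), while Mest itself was at 11.19 and 11.23. Calcr, described with the Sgce locus, was the one that fell. The call of Slc38a4 was lost without shGFP 3, shMKRN1 2 or shMKRN1 6 (adjusted p up to 0.0536), that of Ampd3 without shGFP 1, shGFP 3, shMKRN1 4 or shMKRN1 6 (up to 0.0787), and that of Copg2 whichever array was left out (0.0531 to 0.124). Over every probe set the adjusted p was 0.0713 for Copg2 and 0.0545 for Ampd3, and Copg2 was at 0.0587 without both shGFP 7 and shMKRN1 8. Nap1l4, at the edge of the Kcnq1 locus, had groups apart and a change of 0.20 but did not pass (adjusted p = 0.0538).

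Of 27 genes of imprint maintenance and DNA methylation, 2 rose and 1 fell (11.1%, against 4.49% of all genes), with a median change of -0.02. This list was also chosen with earlier results of these data known. Zfp57 differed by -0.07 (95% confidence interval -0.19 to 0.05), its partner Trim28 by 0.01 (-0.09 to 0.10), the maintenance methyltransferase gene Dnmt1 by 0.04 (-0.06 to 0.14) and its cofactor gene Uhrf1 by 0.05 (-0.06 to 0.15), and none of the 4 passed. Dppa3, which shields methylation in the early embryo, rose by 0.79 (SE 0.16; limma adjusted p = 0.0233), from 6.50 to 7.20 in the shGFP arrays to 7.34 to 7.79 in the shMKRN1 arrays. Its shGFP mean of 6.77 lay just above the range of silent genes, with shGFP 5 at the limit of 6.50. The de novo methyltransferase gene Dnmt3a rose by 0.25 (SE 0.048; adjusted p = 0.0191), and Tet1, which oxidises methylcytosine, fell by 0.23 (SE 0.046; adjusted p = 0.0238). Each of these 3 calls was lost without 4 or 5 of the single arrays, shGFP 1, shGFP 3 and shMKRN1 6 among them (adjusted p up to 0.0796 for Dppa3, 0.0634 for Dnmt3a and 0.0946 for Tet1). Those of Tet1 (0.0526) and Dppa3 (0.0646) were also lost over every probe set, that of Tet1 with median centring (0.0503) and that of Dnmt3a with quantile normalization (0.0559).

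**Figure D4:**
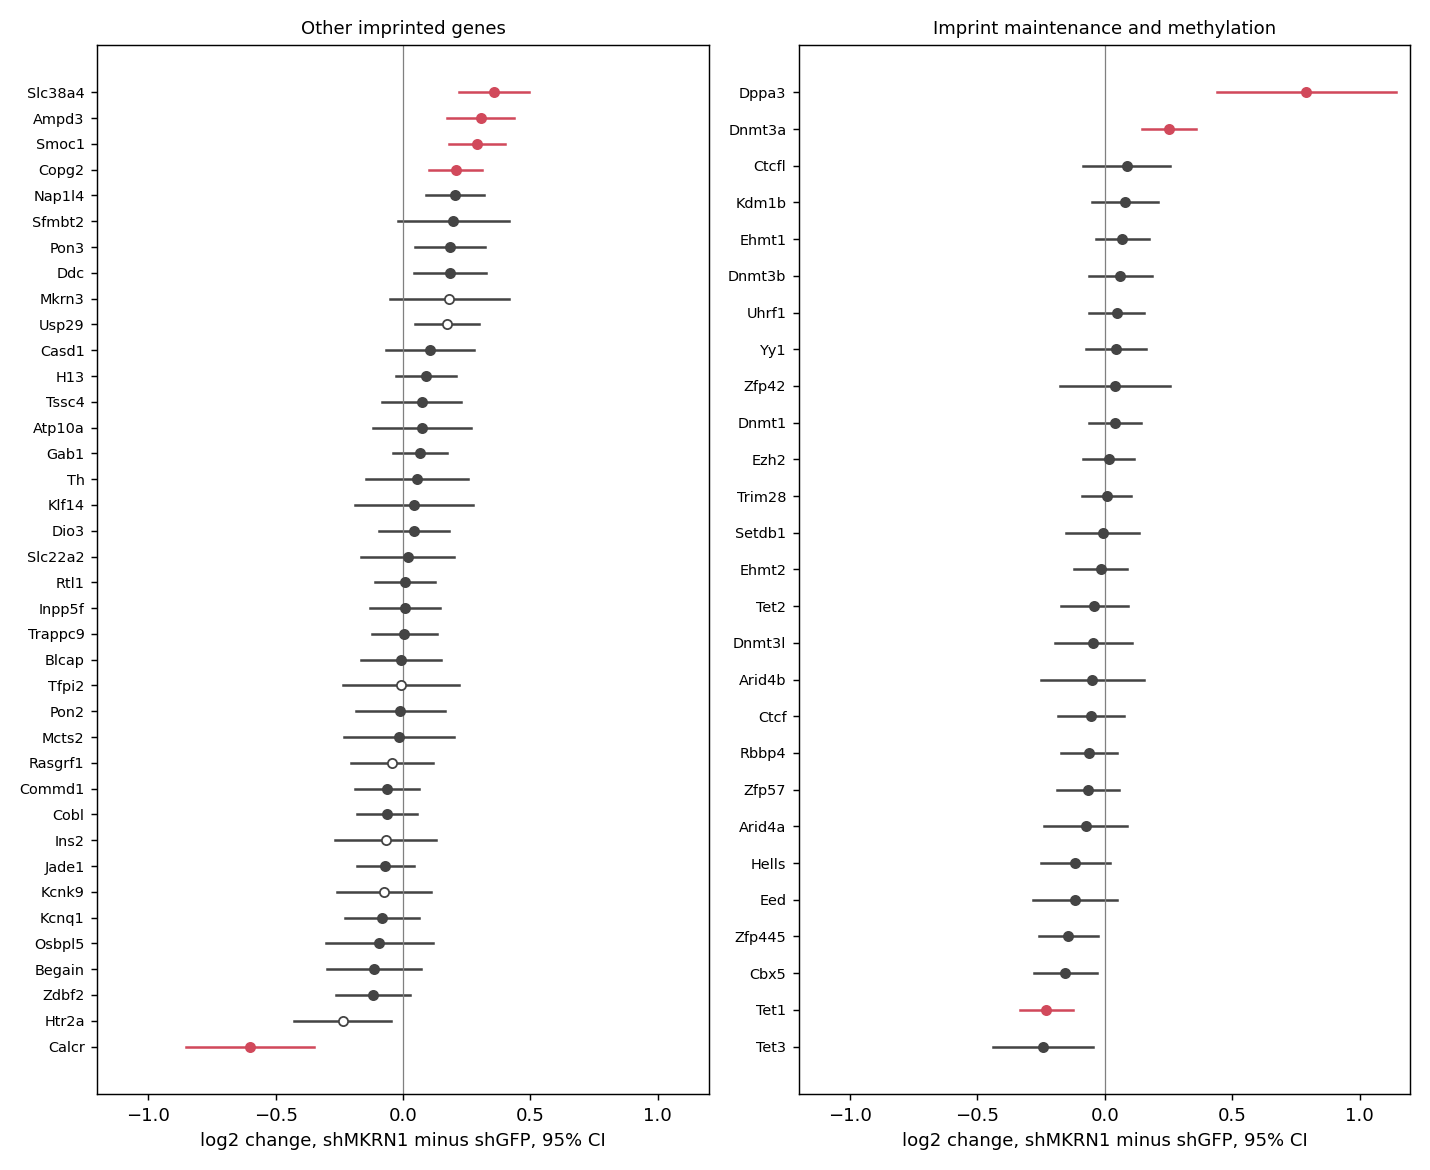
Log2 change (shMKRN1 minus shGFP, x axis, with 95% confidence intervals from limma) of 38 further imprinted genes (left) and 27 genes of imprint maintenance and methylation (right), with genes past an adjusted p of 0.05 in red and open circles where a group mean lies below the receptor-gene limit of 6.50. Calcr at -0.60 and Dppa3 at 0.79 lie furthest from 0.

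The start-site windows of the members were read for features that the list did not use. RefSeq windows of 300 bases were matched for 28 of the 34 listed genes, with 43 windows in all, some of them overlapping. These 28 are not the 28 measured genes. They include Gnas, Snrpn, Mirg, Kcnq1ot1 and Zrsr1, which were not measured, and lack the measured Sgce, Peg10, Cdkn1c, Dcn and Impact. The median count of CG in the 43 windows was 11, against 7 in all 32851 windows, and their median GC content 56.7% against 52.7%. The hexamer TGCCGC, which ZFP57 binds when methylated, was present on either strand in 10 of the 43 (23.3%) and in 11.6% of all windows. These 10 windows belonged to Meg3, Grb10, Igf2, Mest, Nap1l5, Nnat, Zim1, Plagl1 and Snrpn, of which Mest had 2 windows with most bases in common. The hexamer itself holds a CG, and no windows matched for CG content were compared, so the higher share was not separated from base composition. The motif AANATGGCG of the factor YY1, searched on either strand, was in none of the 43 and in 2.38% of all windows. Sgce, the member that passed the test, had no window among these.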

How the data were processed

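RNA of 8 cultures was hybridised to Affymetrix gene arrays. The deposited log2 values of 34760 probe sets were made by the authors with RMA, as the submitters' processing notes name it, while the version and settings are not given in the sources used here. As usually run, this method evens out the distributions of the arrays, which hides a shift common to most genes, and it compresses differences between weak signals. Of the probe sets, 21640 had 1 symbol in the platform annotation, 1321 had several and were not used, and 11799 were unnamed. For genes with several probe sets (954) the highest mean was kept; each member had 1. Groups were fitted over all 19937 genes with limma 3.58.1 in R 4.3.3 (lmFit, eBayes, no covariate, no filter), with Benjamini-Hochberg adjustment. Pairs of neighbours were tested by exact permutation over 70 assignments. The fit was tested on simulated data with independent noise for every gene and array. Differences shared by many genes of an array were not simulated, so that test does not cover them. The alternatives were 2 scalings, a filter on low genes, other probe-set choices, a variance trend, array weights and left-out arrays. The members and lists were chosen with earlier results of these data known. All measured members are named. Every array's values are given for members that passed, that had groups apart above the silent range, or that form pairs, and for Igf2, Ppp1r9a and Calcr, chosen after their values were seen. Called genes of the other lists are named, and their other genes named here were chosen after their values were seen. Promoter windows, gene order and chromosomes are from RefSeq (GRCm38.p6).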

Additional observations from a re-analysis of the deposited data

Results flagged for a closer look

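Of 56 groups of 4 values (28 members in 2 groups), 3 had a sample far from the others by Dixon's test, and chance alone marks about 1 in 20 groups. Ascl2 in shMKRN1 8 was at 7.70, with the next array at 7.89. Ppp1r9a in shGFP 5 was at 8.08, with the next at 7.81. Nnat in shGFP 1 was at 9.48, with the next at 9.66.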

How the results depend on the processing

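The count of 896 called genes was 1595 over the genes above the median level alone, 521 over every probe set, 1548 with a variance trend, 2757 with array weights and 918 without both shGFP 7 and shMKRN1 8 and 309 to 852 without single arrays. The count of members that rose, 1, was 0 over every probe set, 2 with a variance trend, 3 with array weights (Ascl2 and Ppp1r9a besides Sgce) and 0 to 1 without single arrays (Ppp1r9a in place of Sgce without shGFP 5); the count that fell, 0, was 1 with a variance trend. The members' median change of 0.04 was -0.013 over the genes above the median level, -0.0061 with array weights and -0.0070 to 0.053 without single arrays. The sign of the change was kept under all alternatives run for 23 of the 28 members and turned for 5, none of them called: Peg10 was 0.021 with quantile normalization and 0.020 with median centring, Plagl1 0.0042 with median centring, Zim1 -0.020 with array weights and Dcn -0.0048 without both shGFP 7 and shMKRN1 8. Without single arrays Peg10 lay between -0.031 and 0.029, Plagl1 between -0.13 and 0.025, Zim1 between -0.045 and 0.099, Igf2 between -0.19 and 0.028 and Dcn between 0.015 and 0.12. The difference of Peg3 and Zim1 was -0.030 with quantile normalization and -0.0075 to 0.059 without single arrays. That of Dlk1 and Meg3 was 0.018 without both shGFP 7 and shMKRN1 8 and -0.058 to 0.018 without single arrays. That of Sgce and Peg10 lay between 0.43 and 0.55 under the alternatives run. With 4 pairs, a lone pair cannot pass the adjusted exact test, and with fewer than 8 arrays no test was made. The cause was not tested. The alternatives for the medians by expressed allele and for the called genes of other lists were chosen after seeing the data. No paired analysis was made. The groups share no replicate number, and the labels do not say whether neighbours in number, such as shGFP 1 and shMKRN1 2, belong together. The number of arrays limits the precision.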
